A study of Mus musculus with 2 samples.

Results

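The genes described here are Tigit, Cd226 and Cd96, which encode lymphocyte receptors of the immunoglobulin superfamily, and Pvr and Nectin2, which encode their ligands. They were chosen by symbol, and all 5 were found once each among the 32589 genes of both count matrices (Tigit ENSMUSG00000071552, Cd226 ENSMUSG00000034028, Cd96 ENSMUSG00000022657, Pvr ENSMUSG00000040511 and Nectin2 ENSMUSG00000062300). The study treated mice bearing tumours of MC38, a colon carcinoma line of the mouse, and collected the tumours 19 days after inoculation. Live cells positive for CD45, the surface protein of leukocytes that Ptprc encodes, were sorted and sequenced as single cells in 2 groups, one treated (BiDT) and one control (Ctrl). The labels do not define BiDT and separate the groups by a treatment entry alone, and the series title names a fusion protein of an antibody against TIM3 with an interferon. The strain and age of the mice, the dose and what the Ctrl mice received are not given in the sources used here. Cells of 5 biological replicates were pooled into 1 library per group, both of batch 1, so nothing below has a replicate check or a test between groups. Every interval is a 95% interval that covers counting error alone.

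TIGIT and CD226 compete for the same ligands, the poliovirus receptor CD155 (Pvr) and nectin-2 (Nectin2, also called CD112). CD226 is an activating receptor that works with the integrin LFA-1 on T and NK cells, while TIGIT carries inhibitory motifs in its tail, binds CD155 more strongly than CD226 does and is prominent on regulatory T cells and on T cells under chronic stimulation. CD96 also binds CD155, and in mice nectin-1, and has been described as inhibitory in mouse NK cells. CD155 and nectin-2 are adhesion molecules of epithelial, endothelial and tumour cells that dendritic cells and macrophages carry as well.

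The BiDT library held 34996 barcodes with 130313537 unique molecular identifiers (UMIs, each counting 1 captured transcript), and the Ctrl library 34310 barcodes with 211047063 UMIs. After filtering, 31615 BiDT and 30549 Ctrl cells remained, with medians of 2616 and 4172 UMIs. Malat1, a nuclear RNA, took 0.824% of the kept UMIs in BiDT and 0.412% in Ctrl, and 713 barcodes occurred in both libraries. Cells were grouped by clustering without the 5 genes and named from marker genes, so that each class is "X-like" by its markers and not by sorting. Foxp3 was at 417 counts per 1000000 UMIs of the class (CPM) in BiDT and 538 CPM in Ctrl regulatory T-like cells. Ncr1 was at 95.8 CPM in BiDT and 153 CPM in Ctrl NK-like cells. Markers were not confined to their class: 4 NK genes summed to 48.9% of their NK-like level in BiDT and 34.8% in Ctrl CD8 T-like cells. Cells were also assigned by per-cell marker gates. Of those gated as NK, 92.4% in BiDT and 91.5% in Ctrl lay in the class of that name. For gamma delta T cells it was 26.7% and 66.9%, and for cDC2 43.5% and 52.3%. Against the sort, 5.17% of BiDT and 5.43% of Ctrl cells formed a non-immune class led by Sparc, Bgn and Col3a1, in which Ptprc was at 66.5 CPM in BiDT and 40.9 CPM in Ctrl, against 304 and 299 CPM in the migratory DC-like class. Clusters that met no name held 4.004% of BiDT and 1.89% of Ctrl cells and are left out of the classes.

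The receptors lay mostly on lymphocytes and the ligands mostly on myeloid and non-immune cells, as the plot of levels by class shows. The 5 lymphocyte classes held 81.5% of all Tigit UMIs in BiDT cells and 77.6% in Ctrl cells, 80.9% of the Cd96 UMIs in BiDT and 81.7% in Ctrl, and 70.6% of the Cd226 UMIs in BiDT and 69.4% in Ctrl. For Cd226 most of the remainder was in macrophage or monocyte-like cells, which held 18.1% of its UMIs in BiDT and 18.8% in Ctrl. The 6 myeloid and non-immune classes held 87.8% of the Pvr UMIs in BiDT and 95.8% in Ctrl, and 93.9% of the Nectin2 UMIs in BiDT and 97.7% in Ctrl. Cells of the macrophage or monocyte-like class alone gave 68.8% of the Pvr UMIs in BiDT and 73.7% in Ctrl.

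**Figure D1:**
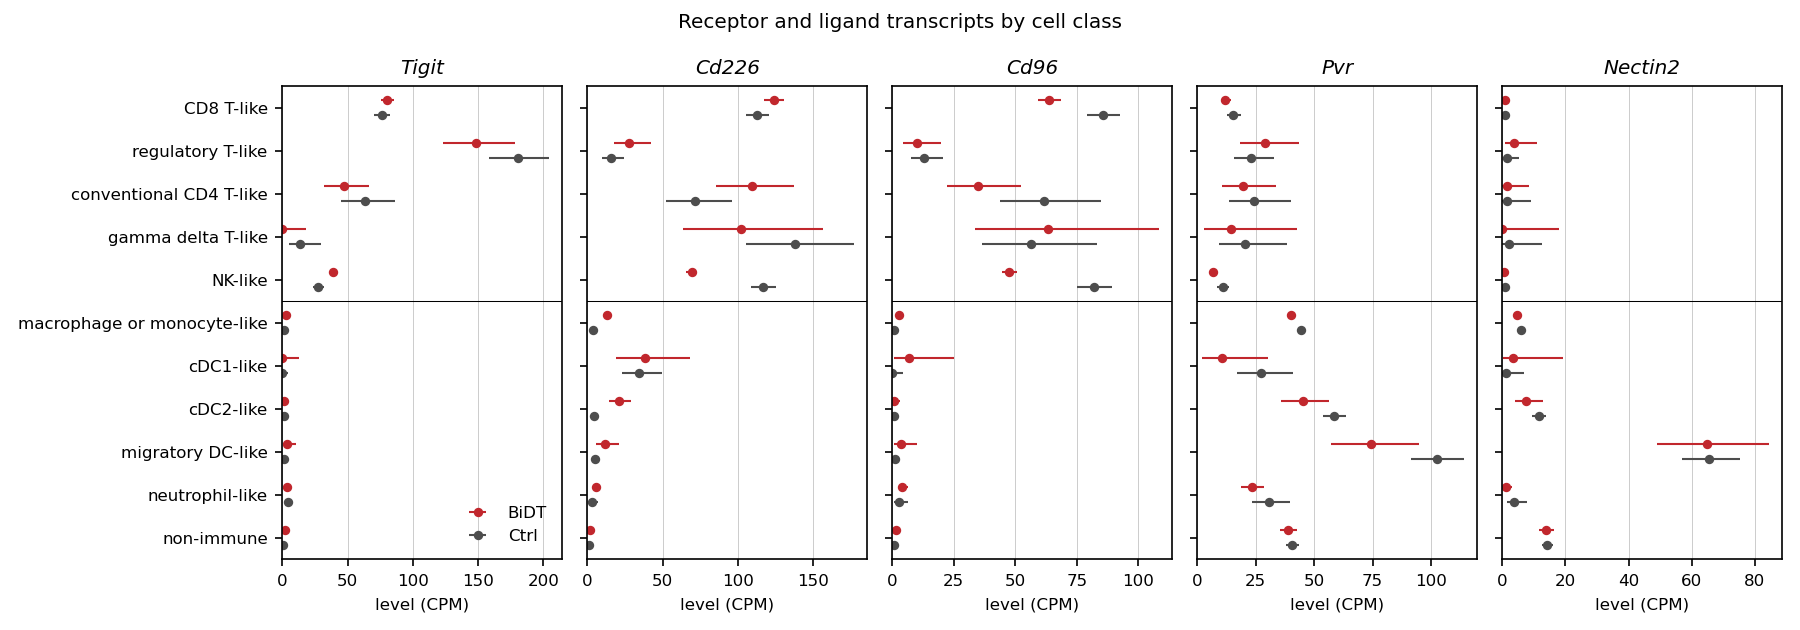
Level of each gene (CPM) in 11 cell classes of the BiDT (red) and Ctrl (grey) libraries; points are the summed level of 1 library and bars its exact Poisson 95% interval. Tigit peaks in regulatory T-like cells (149 CPM in BiDT, 180.4 CPM in Ctrl) and Pvr and Nectin2 in migratory DC-like cells, while NK-like cells show lower Cd226 and Cd96 in BiDT than in Ctrl.

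Tigit, the inhibitory receptor, was highest in regulatory T-like cells in both libraries, at 149 CPM in BiDT (118 UMIs, 123 to 178 CPM) and 180.4 CPM in Ctrl (250 UMIs, 159 to 204 CPM). CD8 T-like cells came next in both, with 80.4 CPM in BiDT and 76.3 CPM in Ctrl. Conventional CD4 T-like cells, a cluster led by Il13 and Il5, had 47.0 CPM in BiDT and 63.4 CPM in Ctrl. Of neighbours in this order, the intervals of conventional CD4 T-like and NK-like cells overlapped in BiDT, as did those of CD8 T-like and conventional CD4 T-like cells and of NK-like and gamma delta T-like cells in Ctrl. Gamma delta T-like cells held 0 Tigit UMIs in BiDT, where the floor of 3 counts is 14.6 CPM and the exact interval reaches 17.97 CPM, and 6 UMIs (13.5 CPM) in Ctrl. Between the libraries, the NK-like class alone among the lymphocyte classes had a Tigit ratio whose interval left out 0: 39.0 CPM in BiDT against 27.6 CPM in Ctrl, a log2 ratio of BiDT over Ctrl of 0.50 (0.26 to 0.74). The log2 ratio was 0.07 (-0.08 to 0.23) in CD8 T-like, -0.28 (-0.61 to 0.04) in regulatory T-like and -0.43 (-1.16 to 0.28) in conventional CD4 T-like cells.

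Cd226, the activating receptor for the same ligands, was spread over CD8, CD4, gamma delta and NK cells and was low in regulatory T-like cells. CD8 T-like cells had 124 CPM in BiDT and 113 CPM in Ctrl, a log2 ratio of 0.13 (0.01 to 0.26), which is a fold of 1.10. Conventional CD4 T-like cells had 109 CPM in BiDT (72 UMIs) and 71.5 CPM in Ctrl (44 UMIs), a log2 ratio of 0.61 (0.05 to 1.18). NK-like cells went the other way, with 69.2 CPM in BiDT (1433 UMIs) against 117 CPM in Ctrl (740 UMIs) and a log2 ratio of -0.75 (-0.88 to -0.62). Regulatory T-like cells had 27.7 CPM in BiDT and 15.9 CPM in Ctrl, 22 UMIs in each library, and the interval of the log2 ratio of 0.80 ran from -0.12 to 1.73. Gamma delta T-like cells had 102 CPM in BiDT and 138 CPM in Ctrl, with a log2 ratio of -0.43 (-1.22 to 0.31). In Ctrl, gamma delta, NK-like and CD8 T-like cells held the top of the order with overlapping intervals, whereas in BiDT the NK-like level was below those of CD8 and conventional CD4 T-like cells, and its interval overlapped that of gamma delta T-like cells.

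Cd96 was lower in BiDT in CD8 T-like and NK-like cells, the classes that carried most of it. CD8 T-like cells had 63.8 CPM in BiDT (756 UMIs) against 85.8 CPM in Ctrl (645 UMIs), a log2 ratio of -0.43 (-0.58 to -0.27). NK-like cells had 47.5 CPM in BiDT (984 UMIs) against 81.8 CPM in Ctrl (519 UMIs), a log2 ratio of -0.78 (-0.94 to -0.63). Conventional CD4 T-like cells had 34.8 CPM in BiDT and 61.8 CPM in Ctrl, on 23 and 38 UMIs, with a log2 ratio of -0.83 (-1.64 to -0.04). Gamma delta T-like cells, at 63.3 CPM in BiDT and 56.4 CPM in Ctrl, and regulatory T-like cells, at 10.1 CPM in BiDT and 13.0 CPM in Ctrl, held too few UMIs to tell the libraries apart.

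The promoters of Cd96 and Tigit are shown because these receptor genes, both on chromosome 16, had opposite directions in NK-like cells. They are the 250 bases before the annotated start of each gene in RefSeq on GRCm38.p6, an earlier build than the GRCm39 named in the submitters' processing notes. The Cd96 window is chr16:46120249-46120498 and the Tigit window chr16:43664185-43664434, both on the minus strand and written 5′ to 3′. Capitals mark matches on either strand to the ISRE core (GAAA, any 2 bases, then GAAA again), the interferon gamma-activated site TTCNNNGAA, the T-box motif AGGTGTGA, the RUNX motif TGTGGTTT or the TATA box TATAAA.
Cd96: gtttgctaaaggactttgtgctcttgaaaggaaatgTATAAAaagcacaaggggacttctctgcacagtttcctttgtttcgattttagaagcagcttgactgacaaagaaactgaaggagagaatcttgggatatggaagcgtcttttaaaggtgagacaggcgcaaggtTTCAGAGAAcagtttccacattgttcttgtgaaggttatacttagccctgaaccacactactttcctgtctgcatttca
Tigit: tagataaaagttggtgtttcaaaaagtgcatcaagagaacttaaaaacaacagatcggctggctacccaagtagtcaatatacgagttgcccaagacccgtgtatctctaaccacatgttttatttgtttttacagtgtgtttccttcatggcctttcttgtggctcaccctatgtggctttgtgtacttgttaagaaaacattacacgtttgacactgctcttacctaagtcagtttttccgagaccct
The Cd96 window held 1 match to TATAAA, which 12.4% of 32851 RefSeq promoter windows of the same length hold, and 1 match to TTCNNNGAA, which 7.02% hold. Neither window matched the ISRE core (2.98% of windows), AGGTGTGA (1.12%) or TGTGGTTT (1.49%). A match is a description of these letters and not a binding site.

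Among the lymphocyte classes, members past 1.5-fold were found in NK-like and conventional CD4 T-like cells. Counting only members with 50 or more UMIs in the 2 libraries together, 3 of 4 were at least 1.5-fold apart in NK-like cells (Cd226, Cd96 and Pvr, all lower in BiDT), where 19.8% of 11446 genes were (14.7% higher and 5.12% lower). In conventional CD4 T-like cells 2 of 3 were (Cd226 higher, Cd96 lower), where 18.4% of 4141 genes were (10.1% higher and 8.38% lower). None of 4 was in CD8 T-like cells, where 14.6% of genes were (10% higher and 4.53% lower), none of 2 in regulatory T-like cells (21.4%), and Cd226, the only such member of gamma delta T-like cells, was not (22%). The median log2 ratio of all these genes was 0.11 in NK-like cells and 0.05 in CD8 T-like cells. Scaling by the trimmed mean of M-values (TMM) shifted every log2 ratio of NK-like cells by -0.11, to 0.39 for Tigit, -0.86 for Cd226 and -0.89 for Cd96. With TMM the Cd226 ratio in CD8 T-like cells was 0.08 and its interval took in 0 (-0.05 to 0.20), and the Tigit ratio in regulatory T-like cells was -0.33, with an interval just below 0 (-0.66 to -0.01).

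**Figure D2:**
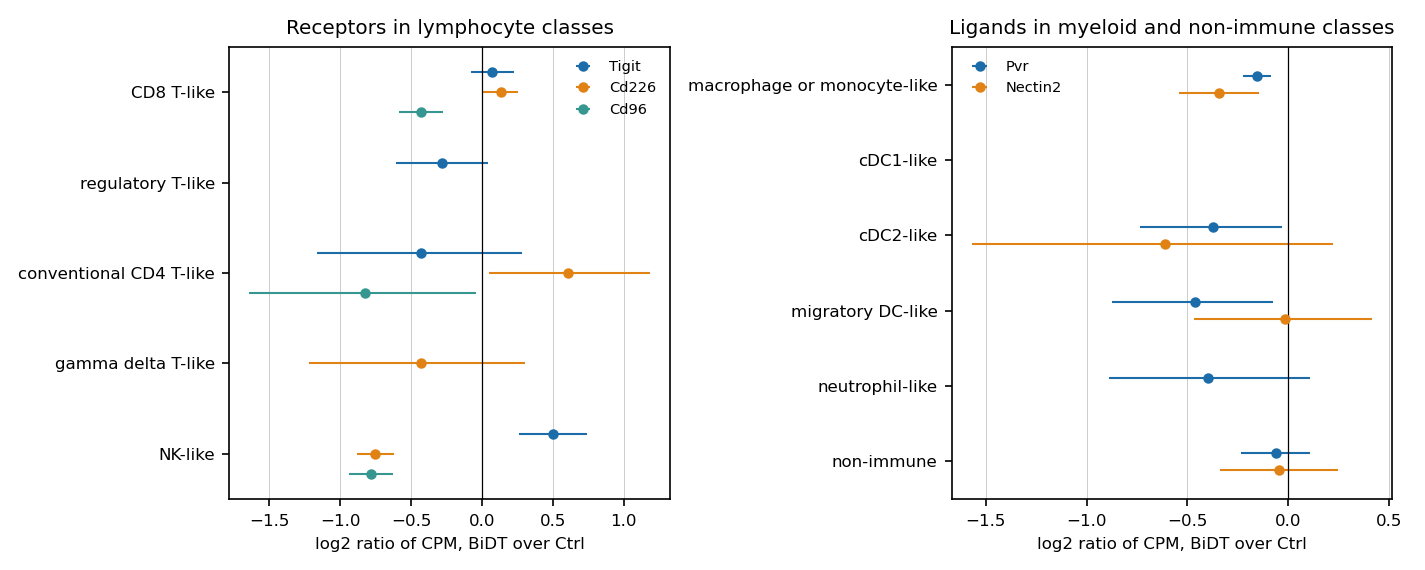
Log2 ratio of CPM, BiDT over Ctrl, of the receptors in lymphocyte classes (left) and of the ligands in myeloid and non-immune classes (right), for genes with at least 50 UMIs over both libraries; bars are exact 95% intervals that cover counting error. In NK-like cells Tigit lies above 0 (0.50) and Cd226 and Cd96 below it (-0.75 and -0.78), and every ligand point lies below 0.

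NK-like cells consisted of 5 clusters whose shares differed between the libraries, and the direction of the receptors was therefore followed within clusters. Clusters L5 and L9 held 37.1% and 24.7% of the class in BiDT, against 16.2% and 12.7% in Ctrl, while L3 held 19.5% in BiDT and 45.2% in Ctrl. Cd226 was lower in BiDT in all 5 clusters, each with an interval wholly below 0. L3, led by Gzmc and Xcl1, had the highest Cd226 level in both libraries, at 152 CPM in BiDT and 186 CPM in Ctrl. L8, led by Gzma and the Ly49 gene Klra8, had the lowest, at 22.05 CPM in BiDT and 37.1 CPM in Ctrl. Cd96 was also lower in BiDT in all 5, in 4 of them with an interval wholly below 0, and the gap was widest in L7, led by the granzyme genes Gzmg and Gzmf, with 48.2 CPM in BiDT and 98.7 CPM in Ctrl.

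Tigit varied in the other sense among the NK-like clusters. It was higher in BiDT in 4 of 5, with intervals wholly above 0 in L5 (47.2 CPM in BiDT, 21.6 CPM in Ctrl on 12 UMIs) and L8 (64.1 CPM in BiDT, 34.4 CPM in Ctrl). In L7 it was lower, at 9.18 CPM in BiDT and 20.4 CPM in Ctrl, a log2 ratio of -1.15 (-2.15 to -0.20) on 16 and 26 UMIs. When the clusters were given the same weights in both libraries, an alternative chosen after the data had been seen, the log2 ratio of the class was 0.65 for Tigit, -0.48 for Cd226 and -0.55 for Cd96. The Malat1 share and the cell depth differed between the libraries, and with cells of at most 1% Malat1 the Tigit log2 ratio in NK-like cells was 0.36. CD3 genes were at 10.5% of the CD8 T-like level in BiDT and 9.82% in Ctrl NK-like cells. The part of these differences in the result was not tested.

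**Figure D3:**
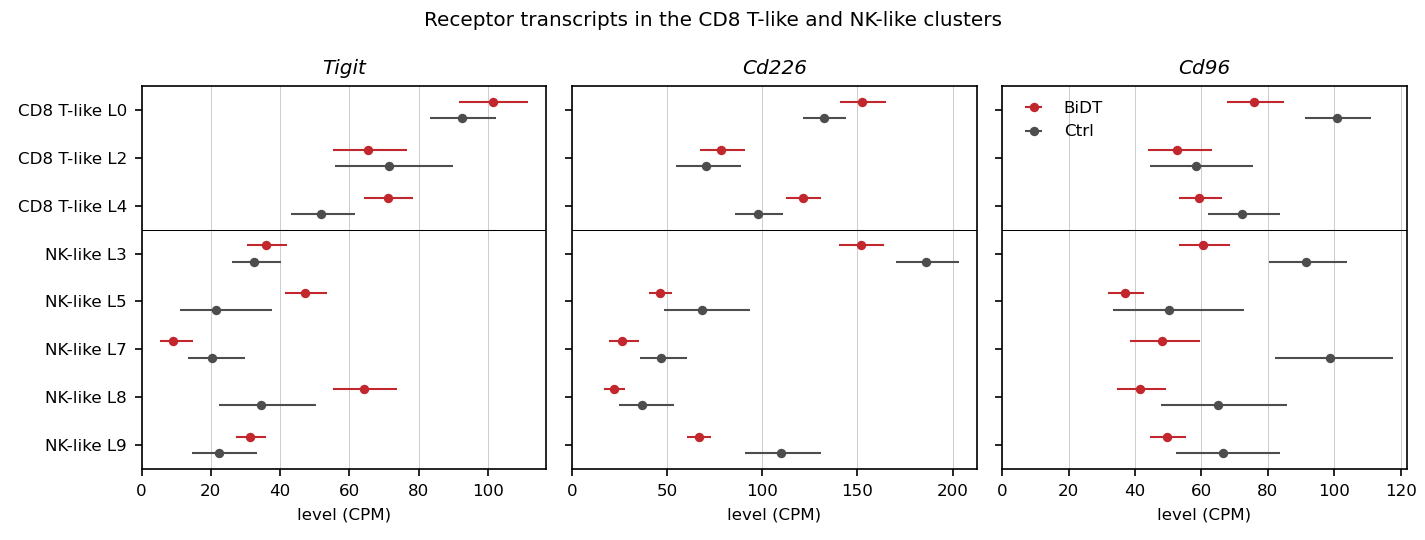
Level (CPM) of the receptors in the 3 CD8 T-like clusters (top) and 5 NK-like clusters (bottom) of the BiDT (red) and Ctrl (grey) libraries, with exact Poisson 95% intervals. Cd96 lies lower in BiDT in all 8 clusters and Cd226 in all 5 NK-like clusters, whereas Cd226 lies higher in BiDT in all 3 CD8 T-like clusters.

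CD8 T-like cells held 3 clusters: L0, led by Cd8a and Lag3, which encodes another inhibitory receptor, made up 35.7% of the class in BiDT and 57.5% in Ctrl, L4, led by Cd8b1, 35.3% and 21.97%, and L2, led by Themis, 29.0% and 20.5%. Tigit was highest in L0, at 101 CPM in BiDT and 92.4 CPM in Ctrl. In L4 it was 71.0 CPM in BiDT and 51.9 CPM in Ctrl, a log2 ratio of 0.45 (0.16 to 0.75), the only CD8 T-like cluster whose Tigit interval left out 0. Cd226 was 153 CPM in BiDT and 133 CPM in Ctrl in L0, and 121 CPM in BiDT and 97.6 CPM in Ctrl in L4. Cd96 was 75.8 CPM in BiDT and 101 CPM in Ctrl in L0, and 59.4 CPM in BiDT and 72.3 CPM in Ctrl in L4.

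The receptors were also followed by detection of exhaustion genes in CD8 T-like cells thinned to 1000 UMIs each, which removes the difference in depth and left out no cell. CD8 T-like cells with a UMI of both Pdcd1 (PD-1) and Havcr2 (TIM3), 324 in BiDT and 151 in Ctrl, had 102 Tigit CPM in BiDT (33 UMIs, 70.1 to 143 CPM) and 126 CPM in Ctrl (19 UMIs, 75.8 to 196.5 CPM). Cells with neither had 76.1 Tigit CPM in BiDT and 74.8 CPM in Ctrl. The 2 libraries could not be told apart in either set. Cells with Mki67, a gene of cycling cells, had 62.3 Tigit CPM in BiDT (47.1 to 80.9) and 105 CPM in Ctrl (74.4 to 143), and cells without it 93.4 CPM in BiDT and 81.9 CPM in Ctrl, with intervals that overlapped in both sets. Cd96 differed in cells with Pdcd1 and no Havcr2, at 65.2 CPM in BiDT (49.4 to 84.5) and 113 CPM in Ctrl (87.1 to 143), and was 48.2 CPM in BiDT (38.4 to 59.8) and 74.8 CPM in Ctrl (58.6 to 94.0) in cells with neither gene, where the intervals touched. Cd226 was 108 CPM in BiDT and 113 CPM in Ctrl in cells with both genes, 96.1 CPM in BiDT and 95.6 CPM in Ctrl in those with Pdcd1 and no Havcr2, and 123 CPM in BiDT and 100.4 CPM in Ctrl in those with neither. In cells with Havcr2 and no Pdcd1 it was 117 CPM in BiDT (89.0 to 151) and 200 CPM in Ctrl (147 to 266), and the intervals overlapped in all 4 sets. These are separate intervals of each library, and no interval of a ratio was computed for these sets. Overlap here therefore does not show that the levels of the libraries are alike. Tcf7, the transcription factor gene of progenitor-like T cells, was detected in 20 BiDT and 13 Ctrl cells, too few to read.

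The share of cells with a UMI was read at a matched depth. At 1000 UMIs a Cd226 UMI was seen in 5.35% of BiDT NK-like cells (4.76 to 5.99%) and 11.02% of Ctrl NK-like cells (9.29 to 12.9%), and without thinning in 16.3% and 32.5%. A Tigit UMI was seen in 4.29% of BiDT and 2.44% of Ctrl NK-like cells at 1000 UMIs, but in 12.6% and 13.0% without thinning, where median depths were 2792 UMIs in BiDT and 4069 UMIs in Ctrl. A Cd96 UMI was seen in 5.36% of BiDT and 8.26% of Ctrl CD8 T-like cells at 1000 UMIs, and in 16.5% and 23.9% without thinning. In non-immune cells, which should lack these receptors and had medians of 4423 UMIs in BiDT and 9755 UMIs in Ctrl, a Tigit UMI was seen in 0.306% of BiDT cells and 0 of 1659 Ctrl cells at 1000 UMIs. For that 0 the floor of 3 counts is 0.181% of cells and the exact interval reaches 0.222%. At the same depth a Cd226 UMI was seen in 0.122% of BiDT and 0.181% of Ctrl non-immune cells, and a Cd96 UMI in 0.245% and 0.0603%. Without thinning, a Tigit UMI was seen in 1.22% of BiDT and 0.784% of Ctrl non-immune cells. Tigit and Cd226 were seen in the same thinned cell in 0.674% of BiDT and 0.924% of Ctrl CD8 T-like cells, where the product of their separate shares was 0.764% in BiDT and 0.810% in Ctrl, within both counting intervals.

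The Cd226 share of the summed Cd226 and Tigit UMIs does not depend on how a library is scaled, and it was lower in BiDT in NK-like cells. It was 64.0% (61.9 to 66.0%) in BiDT NK-like cells and 80.9% (78.2 to 83.4%) in Ctrl NK-like cells. In CD8 T-like cells it was 60.6% in BiDT and 59.6% in Ctrl, with overlapping intervals. In conventional CD4 T-like cells it was 69.9% (60.1 to 78.5%) in BiDT and 53.0% (41.7 to 64.1%) in Ctrl. Regulatory T-like cells had the lowest share, 15.7% (10.1 to 22.8%) in BiDT and 8.09% (5.14 to 11.99%) in Ctrl, and gamma delta T-like cells the highest, 100% in BiDT, on 21 Cd226 UMIs and no Tigit UMI, and 91.0% in Ctrl, on 61 and 6 UMIs. Within NK-like clusters the share was 49.5% in BiDT and 76.0% in Ctrl in L5, 25.6% and 51.9% in L8, and 68.1% and 83.0% in L9. It was 80.9% in BiDT and 85.1% in Ctrl in L3, with intervals that overlapped, and 74.2% and 69.8% in L7.

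**Figure D4:**
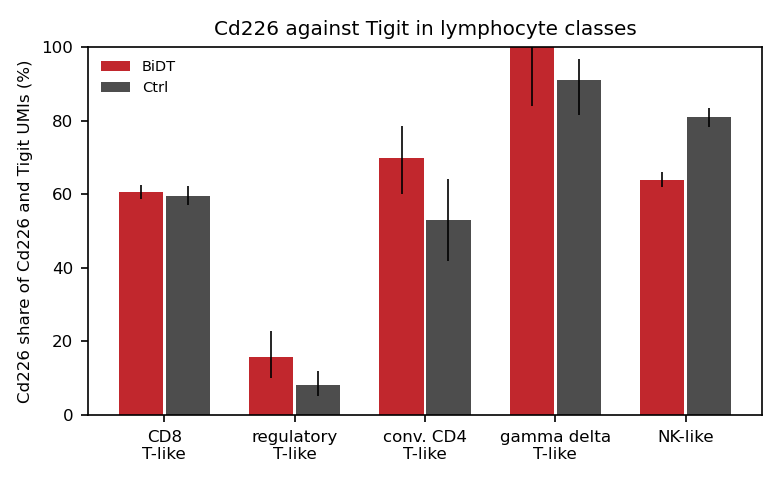
Share of Cd226 in the summed Cd226 and Tigit UMIs (%) of each lymphocyte class in BiDT (red) and Ctrl (grey); bars start at 0 and lines are exact binomial 95% intervals. NK-like cells have 64.0% in BiDT and 80.9% in Ctrl, and CD8 T-like cells 60.6% in BiDT and 59.6% in Ctrl.

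Pvr, the ligand shared by all 3 receptors, was highest in migratory DC-like cells, which are marked by Ccr7 and Fscn1. They had 74.2 CPM in BiDT (64 UMIs, 57.2 to 94.8 CPM) and 102 CPM in Ctrl (326 UMIs, 91.5 to 114 CPM), a log2 ratio of -0.46 (-0.87 to -0.07). The cDC2-like class followed with 45.1 CPM in BiDT and 58.5 CPM in Ctrl, a log2 ratio of -0.37 (-0.74 to -0.03). Macrophage or monocyte-like cells had 39.9 CPM in BiDT and 44.4 CPM in Ctrl, a log2 ratio of -0.15 (-0.22 to -0.08) on 8269 UMIs, and non-immune cells 38.9 CPM in BiDT and 40.6 CPM in Ctrl, a log2 ratio of -0.06 (-0.23 to 0.11). Neutrophil-like cells had 23.3 CPM in BiDT and 30.6 CPM in Ctrl, and cDC1-like cells 10.4 CPM on 3 UMIs in BiDT and 27.1 CPM on 22 UMIs in Ctrl. The log2 ratio of Pvr was below 0 in each of these 6 classes, and past 1.5-fold in none of the 5 with at least 50 UMIs. At 1000 UMIs per cell a Pvr UMI was seen in 6.32% of BiDT and 7.35% of Ctrl migratory DC-like cells and in 3.83% of BiDT and 4.91% of Ctrl macrophage or monocyte-like cells.

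Within the macrophage or monocyte-like class Pvr was lower in BiDT in all 9 clusters, in 4 of them with an interval wholly below 0. The make-up of the class differed strongly: cluster 4, led by Ms4a7 and Cd72, held 25.2% of it in BiDT and 0.581% in Ctrl, and cluster 0, led by Mgl2 and Fn1, 3.07% in BiDT and 23.3% in Ctrl. The highest level was in cluster 3, led by Ly6i and Cxcl9, the gene of an interferon-induced chemokine, with 65.0 CPM in BiDT and 71.2 CPM in Ctrl. The widest gap was in cluster 14, described below for its Cd226, with 10.8 CPM in BiDT and 29.3 CPM in Ctrl, a log2 ratio of -1.44 (-2.04 to -0.86). Among dendritic clusters, D3 had 21.2 CPM in BiDT on 6 UMIs and 69.0 CPM in Ctrl on 58 UMIs, and D10, which held 50.5% of migratory DC-like cells in BiDT and 25.5% in Ctrl, had 85.0 CPM in BiDT and 150 CPM in Ctrl.

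Pvr UMIs were also counted in the lymphocyte classes. CD8 T-like cells had 12.1 CPM in BiDT and 15.4 CPM in Ctrl, which was 30.2% and 34.7% of the macrophage or monocyte-like level. In the same cells 8 phagocyte genes summed to 4.23% of their macrophage or monocyte-like level in BiDT and 4.37% in Ctrl. NK-like cells had 6.81 CPM in BiDT and 10.9 CPM in Ctrl, a log2 ratio of -0.68 (-1.10 to -0.24), with the phagocyte genes at 3.91% in BiDT and 3.73% in Ctrl. Regulatory T-like cells had 29.0 CPM in BiDT and 23.1 CPM in Ctrl, and their phagocyte genes stood at 21.8% in BiDT and 12.8% in Ctrl. The part of stray RNA from phagocytes, or from dendritic and non-immune cells that also held Pvr, was not tested.

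Nectin2, the ligand of CD226 and TIGIT, had its highest level in migratory DC-like cells, as Pvr did. These cells held 10.4% of the Nectin2 UMIs in BiDT and 14.4% in Ctrl. Macrophage or monocyte-like cells held 52.5% in BiDT and 55.5% in Ctrl, and non-immune cells 27.5% and 20.2%. Migratory DC-like cells had 64.9 CPM in BiDT (56 UMIs) and 65.6 CPM in Ctrl (209 UMIs), a log2 ratio of -0.01 (-0.47 to 0.42). The next class, non-immune cells, had 13.9 CPM in BiDT and 14.3 CPM in Ctrl, so that migratory DC-like cells stood 4.68-fold above it in BiDT and 4.59-fold in Ctrl. The log2 ratio in non-immune cells was -0.04 (-0.34 to 0.25). Macrophage or monocyte-like cells had 4.79 CPM in BiDT and 6.08 CPM in Ctrl, a log2 ratio of -0.34 (-0.54 to -0.15), and cDC2-like cells 7.52 CPM on 13 UMIs in BiDT and 11.5 CPM on 104 UMIs in Ctrl, a log2 ratio of -0.61 (-1.57 to 0.22). NK-like and CD8 T-like cells were below 1 CPM in both libraries. Nectin2 also differed from Pvr in its place among phagocytes: cluster 3, where Pvr was highest, had 3.14 Nectin2 CPM in BiDT and 4.56 CPM in Ctrl.

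Of the members with at least 50 UMIs, 2 of 3 were past 1.5-fold in cDC2-like cells (Cd226 higher, and Nectin2 lower with an interval that took in 0 and a log2 ratio of 0.45 under marker gates), where 21.3% of genes were (12.4% higher and 8.86% lower), and 3 of 5 in macrophage or monocyte-like cells (the receptors, all higher), where 28.5% were (18.3% higher and 10.2% lower). None of 2 was in migratory DC-like cells (23.7% of genes, 15% higher and 8.69% lower) or in non-immune cells (24.7%, 20% higher and 4.74% lower), nor was Pvr in neutrophil-like cells (19.2%), and no member reached 50 UMIs in cDC1-like cells (25.8%). TMM scaling moved Pvr by -0.19 to a log2 ratio of -0.34 in macrophage or monocyte-like cells, by -0.12 to -0.49 in the cDC2-like class, by -0.19 to -0.65 in migratory DC-like cells and by -0.23 to -0.29 in non-immune cells. With TMM Pvr was thus past 1.5-fold in migratory DC-like cells, and its non-immune interval lay below 0. By the same scaling 25.2% of 6919 genes were past 1.5-fold in migratory DC-like cells, 600 higher and 1142 lower. With cells assigned by marker gates in place of clusters, the Pvr ratio in migratory DC-like cells was -0.027.

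Cd226 was also found in a set of phagocytes with low levels of the other receptors. Cluster 14 of the macrophage or monocyte-like class, led by Retnla, Lyz1, Fcrls, Ear2 and Lyve1, held 680 BiDT and 328 Ctrl cells, which is 4.06% of the class in BiDT and 1.55% in Ctrl. Its Cd226 level was 132 CPM in BiDT (476 UMIs, from 120.3 CPM) and 79.0 CPM in Ctrl (205 UMIs, from 68.6 CPM), with the BiDT interval overlapping that of CD8 T-like cells and a log2 ratio of 0.74 (0.50 to 0.98). Tigit was at 4.99 CPM in BiDT and 5.01 CPM in Ctrl there, and Cd96 at 3.32 CPM in BiDT and 1.93 CPM in Ctrl. A Cd226 UMI was seen in 10.1% of BiDT and 7.32% of Ctrl cells of cluster 14 at 1000 UMIs. Its cells with a Cd226 UMI had 128 CPM of lymphocyte genes in BiDT and 106 CPM in Ctrl, against 125 and 113 CPM in cells of the cluster without a Cd226 UMI. They were deeper, with medians of 6425.5 UMIs in BiDT and 9722.5 UMIs in Ctrl against 2829.5 and 4562 UMIs. Their phagocyte genes were lower, at 10252 CPM in BiDT and 12903 CPM in Ctrl against 18293 and 21451 CPM.

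Over the whole macrophage or monocyte-like class Cd226 was 13.0 CPM in BiDT and 3.49 CPM in Ctrl, a log2 ratio of 1.90 (1.73 to 2.07). Without cluster 14 it was 5.30 CPM in BiDT and 1.99 CPM in Ctrl, a log2 ratio of 1.41. The ratio was 1.49 with cells thinned to 1000 UMIs and 1.07 with equal cluster weights in both libraries, the lowest of 13 alternatives that all kept the direction. The other receptors differed alike in this class, with Tigit at 3.14 CPM in BiDT and 1.29 CPM in Ctrl and Cd96 at 2.68 CPM in BiDT and 0.790 CPM in Ctrl. The 5 CD3 genes, none of them at 0, stood at 2.08% of their CD8 T-like level in BiDT and 0.778% in Ctrl macrophage or monocyte-like cells, and Tigit at 3.90% and 1.70% of its own CD8 T-like level. In cluster 1, cells with a Cd226 UMI had 387 CPM of lymphocyte genes in BiDT and 532 CPM in Ctrl, against 111 and 51.8 CPM without one. In cluster 3 they had 348 CPM in BiDT and 156 CPM in Ctrl, against 77.4 and 35.7 CPM. In cluster 5 they had 111 CPM in BiDT and 104 CPM in Ctrl, against 108 and 42.0 CPM. In cluster 8 they had 70.8 CPM in BiDT and 49.9 CPM in Ctrl, on 3 and 4 UMIs, against 77.9 and 30.0 CPM. The part of stray lymphocyte RNA in the class ratios was not tested. In cDC2-like cells Cd226 was 20.8 CPM in BiDT and 4.64 CPM in Ctrl, a log2 ratio of 2.17 (1.48 to 2.84) on 78 UMIs, while the CD3 genes were at 1.30% of their CD8 T-like level in BiDT and 0.409% in Ctrl. At 1000 UMIs per cell the Cd226 ratio rested on 5 BiDT and 8 Ctrl UMIs and was 0.92, with an interval that took in 0 (-1.04 to 2.71). Cluster D3, led by Cd209a, Cd209d and Cd7, had 67.3 CPM in BiDT on 19 UMIs and 19.0 CPM in Ctrl on 16 UMIs, with Tigit at 0 UMIs in BiDT and 1 UMI in Ctrl. cDC1-like cells had 38.0 Cd226 CPM in BiDT on 11 UMIs and 34.5 CPM in Ctrl on 28 UMIs, and 0 Tigit UMIs in both libraries.

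**Figure D5:**
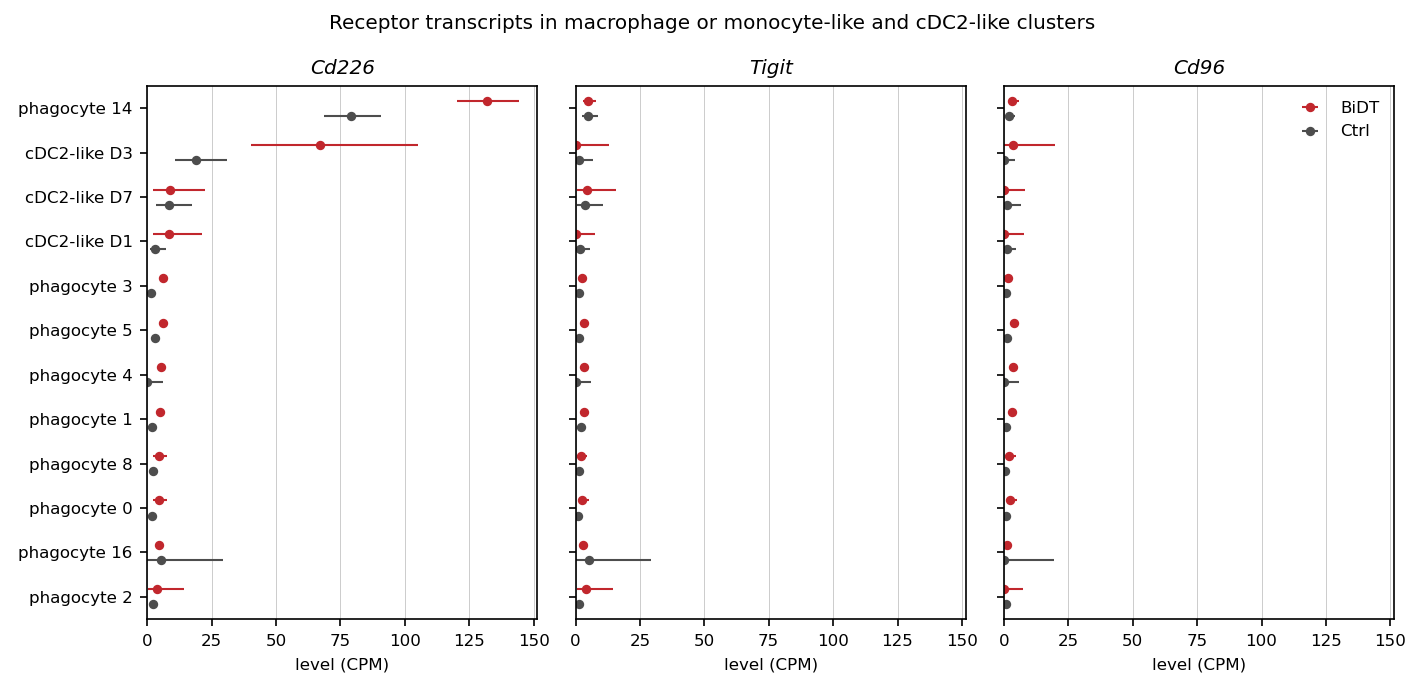
Level (CPM) of Cd226, Tigit and Cd96 in the macrophage or monocyte-like clusters (labelled phagocyte) and cDC2-like clusters with at least 50 cells in each library, in BiDT (red) and Ctrl (grey), with exact Poisson 95% intervals and a common axis. Cluster 14 has 132 Cd226 CPM in BiDT and 79.0 CPM in Ctrl, with Tigit near 5 CPM in both.

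Of 10 further genes of the nectin family and its relatives (Pvrig, Crtam, the other nectins, the Cadm adhesion genes and Afdn), those with 50 UMIs were counted in each class. A gene was called higher or lower only if at least 1.5-fold apart with an interval that left out 0. The shares of all genes set beside these counts rest on the fold alone, a looser rule. Crtam, a receptor for the adhesion molecule Cadm1, was the only 1 of 3 past 1.5-fold in CD8 T-like cells, where 4.53% of all genes were lower, with 17.1 CPM in BiDT and 25.9 CPM in Ctrl, a log2 ratio of -0.60 (-0.89 to -0.31), and the median of the 3 was -0.30 against 0.05 over all genes. None of 3 was past it in NK-like cells, against 19.8% of all genes (median 0.28, all genes 0.11). In macrophage or monocyte-like cells 5 of 10 were higher and 1 lower, against 18.3% and 10.2% of all genes (median 0.32, all genes 0.08). Nectin4 was 15.3 CPM in BiDT and 4.49 CPM in Ctrl there, a log2 ratio of 1.76 (1.61 to 1.91), and Nectin1, a ligand of mouse CD96, 10.1 CPM in BiDT and 19.98 CPM in Ctrl, a log2 ratio of -0.98 (-1.11 to -0.85). Pvrig, Crtam, Cadm2 and Cadm4 were the others that were higher, each below 3 CPM. Nectin1 stood highest in migratory DC-like cells, at 103 CPM in BiDT and 125 CPM in Ctrl. Cadm1, the Crtam ligand and a marker of cDC1, was 270 CPM in BiDT (78 UMIs) and 154 CPM in Ctrl (125 UMIs) in cDC1-like cells, a log2 ratio of 0.81 (0.38 to 1.23). Nectin4 was also higher in cDC2-like cells, at 11.6 CPM in BiDT and 4.75 CPM in Ctrl.

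The 13 signalling genes of these receptors were all measured in CD8 T-like, regulatory T-like and NK-like cells. By the same rule of fold and interval, 1 was called in CD8 T-like cells, 2 in NK-like cells and none in regulatory T-like cells. By the fold alone, 14.6%, 19.8% and 21.4% of all genes were past 1.5-fold in these classes. Prkcq, which encodes protein kinase C theta, was higher in BiDT in CD8 T-like cells (161 CPM in BiDT, 106 CPM in Ctrl) and in NK-like cells (89.7 CPM in BiDT, 57.6 CPM in Ctrl). Inpp5d, which encodes the phosphatase SHIP1 that TIGIT recruits, was also higher in NK-like cells, at 209 CPM in BiDT and 134 CPM in Ctrl, a log2 ratio of 0.64 (0.53 to 0.74). In conventional CD4 T-like cells 3 of 12 were lower, against 8.38% of all genes: Vav1, a guanine nucleotide exchange factor, Itgb2, the beta chain of LFA-1, and Ptpn11, the phosphatase SHP2. Itgb2 was 176 CPM in BiDT and 302 CPM in Ctrl there. The median of the list was 0.07 in CD8 T-like cells (all genes 0.05), 0.07 in NK-like cells (all genes 0.11), -0.03 in regulatory T-like cells (all genes -0.0025) and -0.13 in conventional CD4 T-like cells (all genes 0.00011). In the myeloid and non-immune classes the lymphocyte gene Lck was higher in BiDT in macrophage or monocyte-like, cDC2-like, neutrophil-like and non-immune cells. In macrophage or monocyte-like cells 2 of 13 were called (Lck and Prkcq, both higher), where 28.5% of all genes were past 1.5-fold. In cDC2-like cells Lck was the only 1 of 12 (all genes 21.3%). In non-immune cells 6 of 13 signalling genes were higher (Lck, Vav1, Prkcq, Itgal, Inpp5d and Ptpn6) and none lower, against 20% and 4.74% of all genes there. The CD3 genes were at 1.24% of their CD8 T-like level in BiDT and 0.445% in Ctrl non-immune cells, and the part of stray lymphocyte RNA was not tested. Of the other classes, Plcg1 was higher in gamma delta T-like cells (1 of 10, where 22% of all genes were past 1.5-fold in either direction). Itgal was higher and Arrb2 lower in cDC1-like cells (2 of 10, all genes 25.8%). Itgb2 was lower in migratory DC-like cells (1 of 11, all genes 23.7%). In neutrophil-like cells Itgb2 was lower beside the higher Lck, with 11 genes measured (all genes 19.2%).

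Across 9 classes with at least 100 cells in each library, 18 points in all, the gene whose log2(CPM + 1) was most like that of Tigit was Cd247, which encodes the CD3 zeta chain, with Pearson's r of 0.986 among 8830 genes. Ikzf3, Tox, Gpr174 and Gstp3 came next. For Cd226 the closest were Gm33104 (r = 0.959), St6galnac3, Prrt1, Gm36723 and Klrc2, and for Cd96 Gm17745 (r = 0.983), Klrc1, Thy1, Lax1 and Serpine2. For Pvr they were Myo1c (r = 0.940), Nav1, Sh3glb1, Zfp609 and Cttnbp2nl, and for Nectin2 Sh3bp4 (r = 0.952), Ctnna1, Spred1, Arhgap28 and Mtmr4. Among the members, Cd226 and Cd96 had r = 0.909 and Pvr and Nectin2 r = 0.901, while Tigit had r = 0.778 with Cd226 and 0.855 with Cd96. The points of a library share its depth and free RNA, and the values are descriptions.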

How the data were processed

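The authors deposited raw UMI counts, gene by barcode, for 1 BiDT and 1 Ctrl library, made with Cell Ranger 7.1.0 on GRCm39 per the submitters' processing notes. The labels name a 10x Genomics 3′ workflow, whereas the barcodes have 3 segments of 9 bases, a form that workflow does not use, so the platform is uncertain. Kept cells had at least 300 genes and 500 UMIs, with no more than 10% of UMIs mitochondrial. This removed 572 BiDT and 1702 Ctrl cells for mitochondrial RNA and 1 cell of each library for low counts. Scrublet (in scanpy 1.11.5) marked 0 cells at its own thresholds, so cells with a doublet score of at least 0.15 were removed, 2808 (8.16%) in BiDT and 2058 (6.31%) in Ctrl. The kept cells were pooled and clustered by the Leiden method at resolution 1 on 3000 variable genes. The clustering genes left out the 5 members, the wider nectin and signalling lists, interferon-induced, mitochondrial and ribosomal genes and antigen receptor segments. T and NK cells and dendritic cells were clustered again in the same way, and clusters were named from marker lists. Clusters L1, L6, L11, D2, D9, D13 and D14 met no name. UMIs were summed per class and library and divided by the class total (CPM). Ratios have exact conditional binomial intervals, levels exact Poisson intervals and shares exact binomial (Clopper-Pearson) intervals, all at 95%, and a count of 0 is given a floor of 3 counts. Intervals and floors cover counting error only. With 1 library per group there is no test between groups. Cells were thinned to 1000 UMIs to compare shares. Sums were also scaled with edgeR 4.0.16 (TMM) and DESeq2 1.42.0 size factors. No count model was fitted. The interval calculation was tested on simulated Poisson counts at the pooled class levels. That simulation held no variation between cells or animals and checks the arithmetic alone. Genes outside the members were named where at least 1.5-fold apart with 50 UMIs over both libraries and an interval without 0, or for likeness the 5 with the highest r. The members and lists were chosen with earlier results of these data known. Promoter windows of 3 of the 5 members were matched in RefSeq (GRCm38.p6).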

Additional observations from a re-analysis of the deposited data

Results flagged for a closer look

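The Cd226 ratio went in opposite directions in CD8 and conventional CD4 T-like cells and in NK-like cells. The log2 ratio of BiDT over Ctrl was above 0 in CD8 T-like cells (0.13) and below 0 in NK-like cells (-0.75), which are 0.887 apart, and it was 0.61 in conventional CD4 T-like cells, 1.36 above NK-like cells. With 1 library per group the difference was not tested in either pair. With TMM scaling the CD8 T-like ratio was 0.08 and its interval took in 0, and gamma delta T-like cells had a ratio of -0.43, on the side of NK-like cells.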

How the results depend on the processing

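No paired analysis was possible because each group has 1 library. Over the 29 main results, 286 alternative values stayed within the counting interval and 27 moved, and 0 changed the direction of a ratio whose interval left out 0. Over 84 other results, which include the shares of cells with a UMI, 305 values were kept and 128 moved. For the Cd226 ratio in macrophage or monocyte-like cells, 7 of 13 alternatives moved. Thinning to 1000 UMIs, which weights cells equally, gave log2 ratios in NK-like cells of 0.86 for Tigit, -1.07 for Cd226 and -0.47 for Cd96, -0.69 for Cd96 in CD8 T-like cells, -0.34 for Pvr in macrophage or monocyte-like cells, and -2.92 in cDC2-like and -0.52 in non-immune cells for Nectin2. It gave Cd226 shares of 57.1% in BiDT and 56.5% in Ctrl CD8 T-like cells and 56.0% in BiDT NK-like cells. Equal cluster weights, chosen after seeing the data, gave -0.48 for Cd226 and -0.55 for Cd96 in NK-like cells. Pvr in macrophage or monocyte-like cells was -0.34 with TMM, -0.32 with DESeq2 size factors, -0.25 at resolution 2, -0.35 with the members among the clustering genes, -0.068 with per-cell marker gates and -0.31 without clusters dominated by 1 library. Those are clusters with more than 90% of their cells from 1 library when both libraries are set to equal size. Pvr in non-immune cells was -0.29 with TMM and -0.30 with DESeq2, and in cDC2-like cells -0.74 with the members among the clustering genes. Gates gave -0.027 for Pvr in migratory DC-like cells, 0.45 and 0.50 for Nectin2 in cDC2-like and migratory DC-like cells, and a Cd226 share of 5.03% in Ctrl regulatory T-like cells. The BiDT NK-like share was 67.8% without clusters dominated by 1 library and 68.2% with at most 1% Malat1. The causes were not tested. Without a UMI minimum, genes past 1.5-fold numbered 9950 in NK-like cells against 2270, and TMM moved the higher share among them to 59.6% from 74.2%, and to 44.6% from 64.3% in macrophage or monocyte-like cells. Low UMI counts of Nectin2, and of all members in gamma delta T-like and cDC1-like cells, limit those ratios.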
